A study of Mus musculus with 12 samples.

Results

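The 9 genes described here, Neurl1b, Dusp1, Ergic1, Atp6v0e, Crebrf, Bnip1, Phf1, Cuta and Zbtb9, flank Nkx2-5 on mouse chromosome 17 and were taken from 19938 measured genes. They were selected by name and place, and each was measured by the probe set with 1 gene symbol that had the highest mean over all 12 arrays. The list was drawn up with results of these arrays known and names the contrast of arrays with and without the Nkx2-5 KO label, so for the 9 genes that contrast is described here without a test. In the order of measured genes, 6 of them precede Nkx2-5 and 3 follow it.

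Each of the 12 Affymetrix arrays measured total RNA of mouse hearts taken at stage E8.75, when the heart is a looping tube. The 3 arrays of each of 4 groups carry the labels WT (wild type), Nkx2-5 KO, Tbx5 KO, or Tbx5 KO;Nkx2-5 KO, the last called double KO below. The titles number the arrays as biological replicates. The strain, the form of each mutant allele, any Cre driver and the number of embryos per array are not stated in the labels, so the p-values measure the spread between these samples.

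Nkx2-5 is a homeodomain transcription factor at the head of the cardiac gene programme, and Tbx5 is a T-box factor that binds many of the same regulatory regions. A mutant allele is inherited together with the chromosome segment around it, and genes that lie side by side can share regulatory sequence. Arrays with and without the Nkx2-5 KO label were compared gene by gene along the chromosome. The neighbours have unrelated roles, in stress signalling, membrane traffic, acidification of vesicles, Notch signalling and chromatin.

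Levels are given as deposited, on the log2 scale for each probe set, and a difference of 1 is a doubling of signal. Differences are followed by ± their standard error (SE) from a limma fit to all 12 arrays, and levels are means ± SD over 3 arrays. A gene was called when its p from that fit, adjusted over all 19938 genes by the Benjamini-Hochberg method, was under 0.05. The averaged Nkx2-5 difference is the mean of 2 differences that share no array, Nkx2-5 KO minus WT and double KO minus Tbx5 KO. Array medians lay between 8.05 and 8.25, and the cardiac muscle markers Tnnt2 and Myl7 were high on every array. The summed level of 7 cardiomyocyte markers lay between 15.91 and 16.14, but 3 of the 7 were called in the averaged Nkx2-5 difference: Nppa fell by 2.29 ± 0.18 (adjusted p = 1.8e-05), Myh6 fell by 0.33 ± 0.10 (0.0381) and Myh7 rose by 0.25 ± 0.07 (0.0266).

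Promoters of 3 of the genes are shown, each for a reason of its own. Crebrf had the largest difference, Ergic1 was lower on every array with the Nkx2-5 KO label, and Cuta was the 1 gene of the 9 with a match to an NKX2-5 motif. Each run gives the 250 bases before the RefSeq start in GRCm38.p6, 5′ to 3′ on the gene's strand, and capitals mark matches to TNAAGTG or its reverse complement. The windows are chr17:26715400-26715649 on the plus strand for Crebrf, chr17:26561262-26561511 on the plus strand for Ergic1 and chr17:26939459-26939708 on the minus strand for Cuta.
Crebrf: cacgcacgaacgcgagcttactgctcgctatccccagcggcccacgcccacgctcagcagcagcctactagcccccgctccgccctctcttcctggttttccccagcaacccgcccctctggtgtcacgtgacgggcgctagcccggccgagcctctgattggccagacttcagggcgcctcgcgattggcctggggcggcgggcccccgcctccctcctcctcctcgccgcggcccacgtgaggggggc
Ergic1: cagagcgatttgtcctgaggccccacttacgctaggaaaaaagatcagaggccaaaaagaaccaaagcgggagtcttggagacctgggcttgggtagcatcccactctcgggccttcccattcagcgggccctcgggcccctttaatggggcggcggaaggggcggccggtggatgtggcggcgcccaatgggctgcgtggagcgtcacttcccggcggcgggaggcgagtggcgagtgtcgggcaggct
Cuta: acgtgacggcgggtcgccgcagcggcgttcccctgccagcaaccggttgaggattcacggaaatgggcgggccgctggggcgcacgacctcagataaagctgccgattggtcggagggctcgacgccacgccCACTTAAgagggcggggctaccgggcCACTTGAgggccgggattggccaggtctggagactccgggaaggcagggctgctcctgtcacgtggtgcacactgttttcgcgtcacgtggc

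All 9 genes had a promoter in the RefSeq table, with 10 start sites in all. The motif TNAAGTG, searched on both strands, matched 2 times before Cuta, with first bases 118 and 92 bases before the start. The same matches lie before the other Cuta start, so 2 of the 10 start sites held one. Over all 32851 promoter windows of the table, 10.1% held a match. The T-box motif GGTGTGA, also searched on both strands, was found before 0 of the 10 start sites and in 3.33% of all windows. A match is a string of letters and not a measured binding site, and no binding was measured on these arrays.

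Nkx2-5 itself, probe set 10449292, was read at 9.33, 9.36 and 9.35 on the WT arrays and at 9.38, 9.31 and 9.36 on the Tbx5 KO arrays. It was read at 8.96, 8.72 and 9.13 in Nkx2-5 KO and at 9.05, 9.21 and 8.97 in double KO hearts. Every array with the label lay below every array without it, by at least 0.10, and the averaged difference was -0.34 ± 0.08 (adjusted p = 0.00804). A probe set outside the removed part can still read RNA from a mutant allele, and the labels do not say which part was removed, so this probe set may not check the genotype. The Tbx5 probe set (10525030) went against its label: it was 10.15, 10.13 and 9.9 in WT and 10.53, 10.15 and 10.29 in Nkx2-5 KO, but 10.73, 10.42 and 10.45 on the arrays labelled Tbx5 KO and 10.31, 10.65 and 10.83 on those labelled double KO. The averaged Tbx5 difference of the Tbx5 probe set was 0.37 ± 0.10 (adjusted p = 0.0391), so loss of Tbx5 RNA was not seen. The same limit holds here: the Tbx5 probe set may read RNA from a mutant allele and may not check the genotype. Of the 7 cardiomyocyte markers, 3 were called lower and 1 higher in the averaged Tbx5 difference. That difference was -2.95 ± 0.18 for Nppa (adjusted p = 3.23e-06), with means of 13.37 in WT and 10.06 in Tbx5 KO. What caused it was not tested. Group names are used here as labels only.

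Crebrf stood far from the other neighbours. It encodes a regulator of the stress-responsive factor CREB3 and promotes the breakdown of that factor. Its probe set (10443027) was read at 7.47, 8.72 and 8.09 in WT hearts and at 10.34, 9.90 and 9.94 in Nkx2-5 KO hearts. In Tbx5 KO hearts it was read at 8.53, 8.58 and 9.86, and in double KO hearts at 10.55, 10.77 and 10.14. The 6 arrays with the Nkx2-5 KO label lay above the 6 without it, but only by 0.04, because Tbx5 KO replicate 3 was nearly as high as the lowest Nkx2-5 KO array. After every array was centred on its own median, the groups overlapped by 0.04 at that array. The averaged difference was 1.73 ± 0.25, a 3.32-fold higher signal, and 0.11% of the 19938 genes had a larger one in size. Since the list names this contrast, nothing is read from that rank. The Crebrf difference was 1.97 ± 0.35 between Nkx2-5 KO and WT and 1.49 ± 0.35 between double KO and Tbx5 KO. Leaving out any 1 array kept the averaged difference between 1.57 and 1.95. Crebrf also had the widest spread within groups of the 9 genes, with a pooled SD of 0.529 beside a median of 0.155 over all genes.

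Ergic1 and Neurl1b moved the other way. Ergic1, a membrane protein that cycles between the endoplasmic reticulum and the Golgi, was read by probe set 10443009 at 11.19, 11.01 and 11.13 in WT and at 10.74, 10.69 and 10.58 in Nkx2-5 KO. Tbx5 KO arrays gave 10.75, 10.80 and 11, and double KO arrays gave 10.31, 9.95 and 10.40, the lowest of the 4 groups. The arrays with the label lay below those without it by 0.01 at the closest point, and after median centring they overlapped by 0.01. The averaged Nkx2-5 difference was -0.53 ± 0.09, made of -0.44 ± 0.12 without and -0.63 ± 0.12 with the Tbx5 KO label.

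Neurl1b encodes a ubiquitin ligase that acts on Delta ligands of the Notch pathway. The kept probe set (10443007) gave 9.65, 9.32 and 9.43 in WT, 8.99, 9.06 and 9.17 in Nkx2-5 KO, 9.09, 9.70 and 9.32 in Tbx5 KO and 8.89, 8.59 and 8.50 in double KO. On 5 of the 6 arrays with the label the value was below every array without it, with Nkx2-5 KO replicate 3 the exception. The averaged difference was -0.55 ± 0.11. The other Neurl1b probe set (10443000) did not share it: its mean was 8.11 with the label and 8.0 without, a difference of 0.11. With both probe sets averaged, the Neurl1b difference was -0.22.

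**Figure D1:**
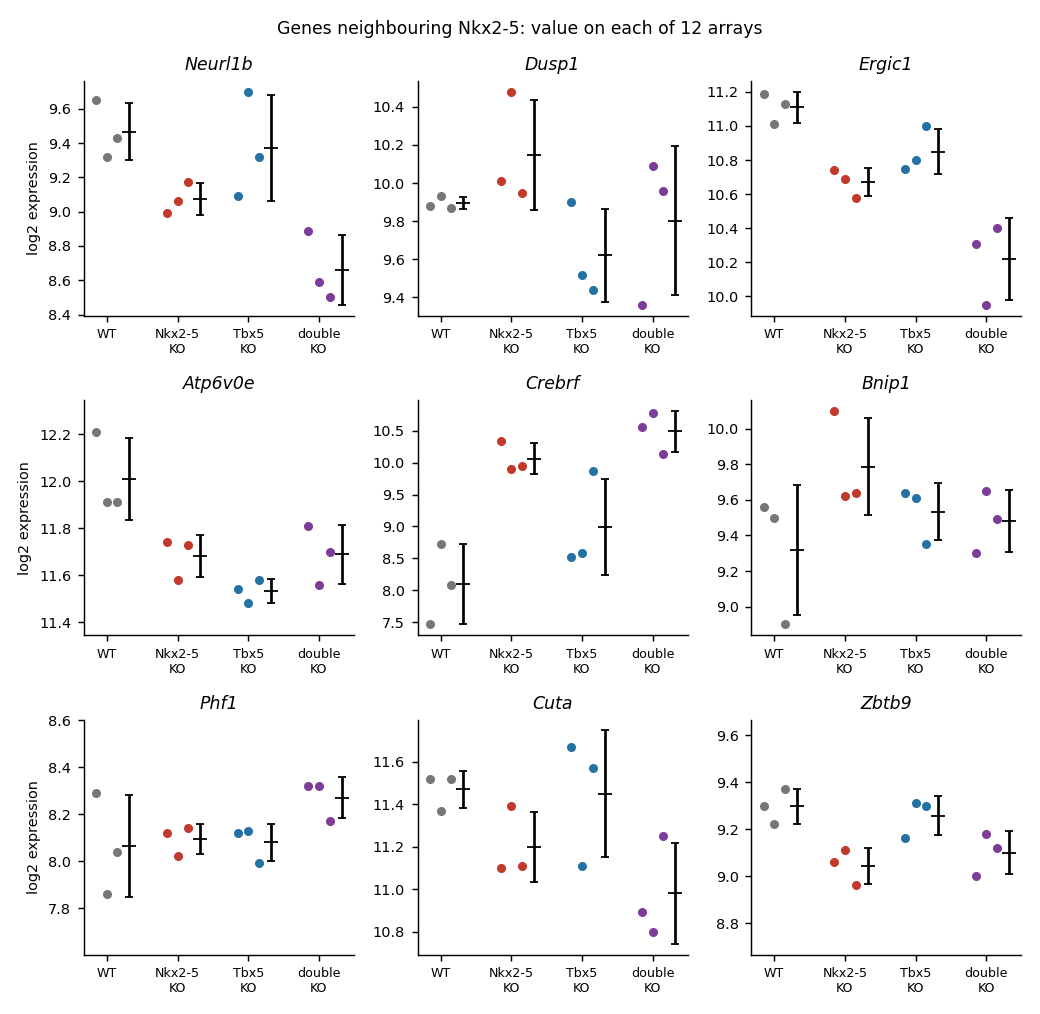
Log2 expression (y axis, a scale of its own in each panel that does not start at 0) of the 9 genes on each of the 12 arrays, by group (x axis); dots are arrays and black marks are the mean ± SD of 3 arrays. Crebrf is above 9.8 on all 6 Nkx2-5 KO and double KO arrays but also on Tbx5 KO replicate 3, and Ergic1 is lowest in double KO.

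On the other side of Nkx2-5 lie Phf1, Cuta and Zbtb9. Cuta, a small conserved protein linked to the anchoring of acetylcholinesterase, was read by probe set 10449295 at 11.52, 11.37 and 11.52 in WT, 11.10, 11.39 and 11.11 in Nkx2-5 KO, 11.67, 11.11 and 11.57 in Tbx5 KO and 10.89, 10.80 and 11.25 in double KO. Its averaged difference was -0.37 ± 0.11, and the groups overlapped by 0.27, with 4 of the 6 labelled arrays below every other array. Zbtb9, a zinc finger protein with a BTB domain, had one of the steadiest signals, with a pooled SD of 0.0815 within groups. Its values were 9.30, 9.22 and 9.37 in WT, 9.06, 9.11 and 8.96 in Nkx2-5 KO, 9.16, 9.31 and 9.30 in Tbx5 KO and 9.0, 9.18 and 9.12 in double KO. The averaged difference of -0.21 ± 0.06 was small, and 5 of the 6 labelled arrays lay below all others. Phf1, an accessory subunit of Polycomb repressive complex 2, lay between 8.02 and 8.32 with the label and between 7.86 and 8.29 without it, a difference of 0.11 ± 0.08 within overlapping ranges.

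For Bnip1 and Atp6v0e the sign of the difference turned between the Tbx5 states, and for Dusp1 1 array stood against the other 5. Bnip1, the gene next to Nkx2-5 in the measured order, encodes a SNARE protein of transport back to the endoplasmic reticulum. It gave 9.56, 9.50 and 8.90 in WT and 10.10, 9.62 and 9.64 in Nkx2-5 KO, but 9.64, 9.61 and 9.35 in Tbx5 KO and 9.30, 9.65 and 9.49 in double KO. The Nkx2-5 difference was thus 0.47 ± 0.18 in one Tbx5 state and -0.05 ± 0.18 in the other.

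Atp6v0e, a membrane subunit of the proton pump that acidifies vesicles, gave 12.21, 11.91 and 11.91 in WT and 11.74, 11.58 and 11.73 in Nkx2-5 KO. It gave 11.54, 11.48 and 11.58 in Tbx5 KO and 11.81, 11.56 and 11.70 in double KO. WT was the highest group and each KO group was lower, so the Nkx2-5 difference was -0.33 ± 0.11 against WT and 0.16 ± 0.11 against Tbx5 KO.

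Dusp1, a phosphatase that switches off MAP kinases and an early response gene, gave 9.88, 9.93 and 9.87 in WT and 10.01, 10.48 and 9.95 in Nkx2-5 KO. It gave 9.90, 9.52 and 9.44 in Tbx5 KO and 9.36, 10.09 and 9.96 in double KO. On 5 labelled arrays Dusp1 was above every array without the label, while double KO replicate 1 was below them all, and the averaged difference was 0.22 ± 0.14.

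As a set, 4 of the 9 genes had a positive and 5 a negative averaged difference. After quantile normalization again the negative value of Atp6v0e (-0.08 ± 0.07) became 0.03. Their median difference was -0.0834 beside 0.0293 over all genes, and their median size was 0.221 beside 0.116. The list was drawn up with results of these arrays known, so nothing is read from these signs or medians. The groups with and without the label did not overlap for 2 of the 9 genes, Crebrf (higher) and Ergic1 (lower). Over all genes 4.20% did not overlap, 1.78% higher and 2.43% lower; since the list names this contrast, nothing is read from that count. It was 4 without Tbx5 KO replicate 1, when Neurl1b and Zbtb9 joined, and 0 with centred arrays. It was 3 without Nkx2-5 KO replicate 3 (with Neurl1b), without replicate 1 of double KO (with Dusp1) and without replicate 2 of double KO (with Zbtb9). For 7 of the 9 genes the sign was the same in Nkx2-5 KO against WT as in double KO against Tbx5 KO, and Atp6v0e and Bnip1 were the exceptions. The small values of Bnip1 against Tbx5 KO (-0.14 to 0.08) and of Phf1 against WT (-0.07 to 0.14) changed sign in 3 of 20 alternatives each.

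**Figure D2:**
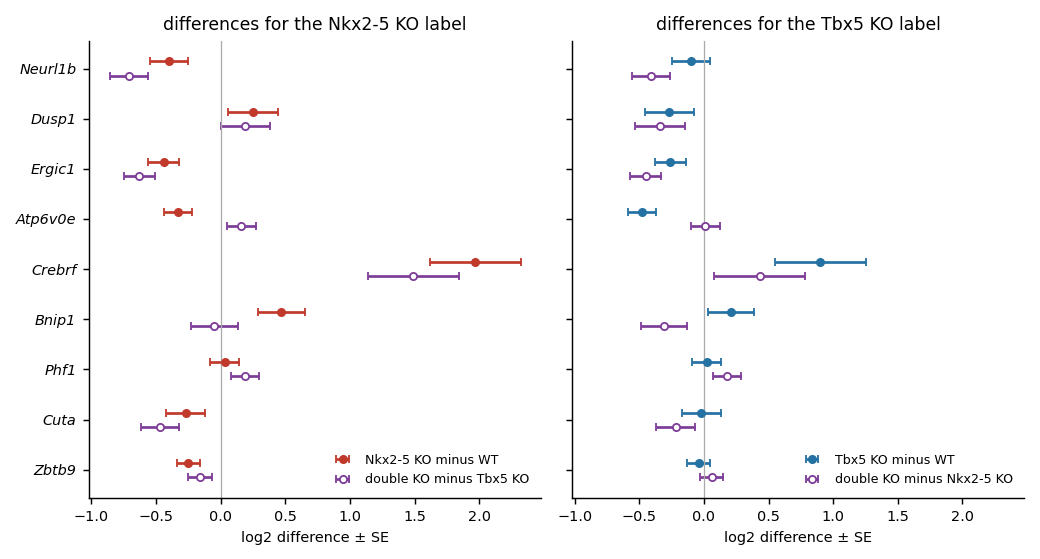
Log2 differences ± SE (x axis) of the 9 genes (y axis) for the Nkx2-5 KO label in both Tbx5 states (left) and for the Tbx5 KO label in both Nkx2-5 states (right). On the left Crebrf is at 1.97 and 1.49, whereas all other values are within 0.71 of zero.

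The contrast that the choice of genes did not use was the Tbx5 KO label, which the Tbx5 probe set went against but may not check. Averaged over both Nkx2-5 states, 1 of the 9 genes was called, Ergic1, which fell by 0.35 ± 0.09 (adjusted p = 0.0223), beside 10.6% of all genes called and 7.43% called lower. That call ended after quantile normalization again (adjusted p = 0.0511) and without WT replicate 1 (0.0533), Nkx2-5 KO replicate 1 (0.0564), Tbx5 KO replicate 1 (0.0573) or Tbx5 KO replicate 2 (0.0508). Over all genes 29.9% of the calls were higher, and 49.8% after quantile normalization again or 15.3% with centred arrays. Crebrf was 0.66 ± 0.25 (adjusted p = 0.113), Atp6v0e -0.24 ± 0.07 (0.0639) and Neurl1b -0.25 ± 0.11 (0.161), none of them called. Atp6v0e was called with centred arrays (0.0299), with array weights (0.0264) and with an intensity trend (0.0415).

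In the single comparison of Tbx5 KO with WT, Atp6v0e fell by 0.48 ± 0.11 (adjusted p = 0.0362), the 1 gene of the 9 called, beside 2.31% of all genes. Its 3 Tbx5 KO values lay below its 3 WT values. The call ended after quantile normalization again (0.0585), without WT replicate 1 or 3, without Nkx2-5 KO replicate 1 and without any 1 of the Tbx5 KO arrays (adjusted p 0.0535 to 0.128). Between double KO and Nkx2-5 KO, 0 of the 9 were called, beside 5.56% of all genes. Ergic1 was nearest there, at -0.45 ± 0.12 (adjusted p = 0.0518), and was called in 5 of the alternatives, such as without double KO replicate 3 (0.0283).

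The non-additive term asks whether the Nkx2-5 difference at a gene differs between the Tbx5 states. It was called for 0 of the 9 genes, beside 0.547% of all genes. The largest in size were -0.52 ± 0.26 for Bnip1 (adjusted p = 0.61), 0.49 ± 0.15 for Atp6v0e (0.257) and -0.47 ± 0.50 for Crebrf (0.853). With an SE of 0.50, a difference between states of that size at Crebrf was not detectable on 3 arrays a group.

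The measured genes near Nkx2-5 that are not among the 9 were tested for the averaged Nkx2-5 difference. They are what the choice of the 9, made with results known, left over, so they are not a set fixed by position alone. Among the 10 measured genes nearest to Nkx2-5 on each side, 11 were outside the set, and 3 of them were called, 1 higher and 2 lower (27.3%, beside 17.1% of all genes). Farther out, 7 of 40 genes at places 11 to 30 on each side were called (17.5%). At places 31 to 100 it was 24 of 140 (17.1%), and over the rest of chromosome 17 it was 124 of 735 (16.9%). The share called beyond the nearest 10 was close to that of all genes. Whether the share among the nearest 10, 3 of 11 genes, differs from it was not tested.

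Of the 3 nearby genes, Uqcc2, an assembly factor of respiratory complex III, fell by 0.99 ± 0.11 (adjusted p = 0.000172). It was 11.57, 11.53 and 11.69 in WT, 10.62, 11.13 and 10.52 in Nkx2-5 KO, 11.23, 10.86 and 11.17 in Tbx5 KO and 9.88, 9.81 and 10.17 in double KO. Its other probe set differed by -0.62. Uqcc2 also fell with the Tbx5 KO label, by 0.66 ± 0.11 (adjusted p = 0.00399). Bak1, a pore-forming protein of apoptosis that is the next measured gene after Zbtb9, fell by 0.40 ± 0.12 (adjusted p = 0.0294). The Bak1 call ended in 9 of 19 alternatives (adjusted p 0.0553 to 0.0764), 8 of them without 1 array. Fam234a rose by 0.32 ± 0.08 (adjusted p = 0.0123). Luc7l, the measured gene just before Neurl1b, had a difference of 0.19 ± 0.08 (adjusted p = 0.148). Itpr3, the measured gene just after Bak1, was not called either (0.18 ± 0.06, adjusted p = 0.0556). Its arrays with the label (8.81 to 8.96) did not overlap those without it (8.53 to 8.8), as for 4.20% of all genes.

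**Figure D3:**
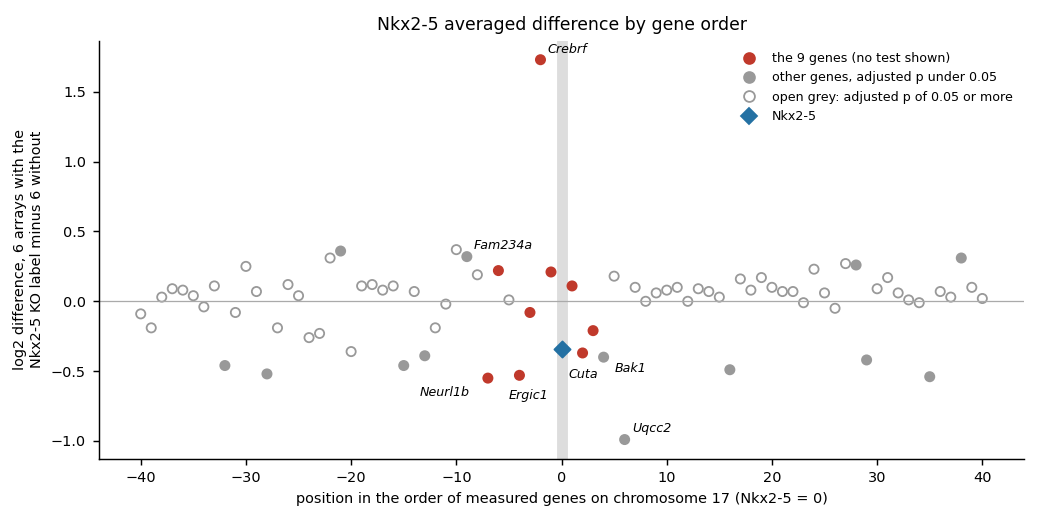
Averaged Nkx2-5 log2 difference (y axis) of the measured genes of chromosome 17 in their order around Nkx2-5 (x axis, 40 places on each side, not to genomic distance). Crebrf at 1.73 and Uqcc2 at -0.99 stand apart from genes that mostly lie within 0.5 of zero.

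The same window was taken around Tbx5, whose own probe set was higher with the Tbx5 KO label. Of the 20 measured genes nearest to Tbx5 on chromosome 5, 3 were called for the averaged Tbx5 difference (15.0%, beside 10.6% of all genes). They were Tbx3, a T-box factor of the conduction system (-0.68), Rbm19 (-0.33; the call ended in 6 of 19 alternatives) and Tesc (0.52), named after their values were seen. Whether the windows differ was not tested.

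Groups of genes with roles like those of the neighbours were followed over the same averaged Nkx2-5 contrast. The lists were chosen with earlier results of these data known, so they are described and not ranked. Of all genes 6.11% were called higher and 11% lower; of the calls 35.6% were higher, and 48.4% after quantile normalization again or 18.9% with centred arrays. Of the immediate early genes, the class to which Dusp1 belongs, 10 of 14 rose and 0 fell, with a median of 0.811. Atf3, a stress-induced transcription factor, rose by 1.82 ± 0.14, Egr1, a zinc finger factor, by 1.67 ± 0.19, Btg2, an antiproliferative gene, by 1.38 ± 0.12 and Fosb, a subunit of AP-1, by 1.23 ± 0.18. Their calls held in all 19 alternatives. The count of called genes in the list was 8 to 11 over the alternatives, for example 8 without WT replicate 1 and 11 with array weights. The summed level of the 14 genes lay between 13.63 and 14.39 with the label and between 12.84 and 13.12 without it.

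Among 9 other MAP kinase phosphatases, 3 rose and 0 fell: Dusp4 (0.58 ± 0.15), Dusp10 (0.41 ± 0.13) and Dusp6 (0.34 ± 0.11). That count was 0 without WT replicate 1 or Nkx2-5 KO replicate 1. It was 1 with centred arrays and without WT replicate 3, Nkx2-5 KO replicate 3, Tbx5 KO replicate 1, Tbx5 KO replicate 2 or double KO replicate 2, and 5 with array weights.

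In the list of the CREB3 family and the unfolded protein response, 4 of 9 rose and 0 fell, with a median of 0.259. Ddit3, a transcription factor of the stress response, rose by 0.98 ± 0.15, Herpud1, a part of protein disposal at the endoplasmic reticulum, by 0.44 ± 0.10 and Dnajb9, a chaperone of that compartment, by 0.40 ± 0.07. Creb3, whose product Crebrf regulates, rose by 0.38 ± 0.09 (adjusted p = 0.0112, and 0.0501 with centred arrays).

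Of 15 measured subunits and partners of the proton pump that holds Atp6v0e, 3 rose and 0 fell, and the count was 1 with centred arrays or without WT replicate 1. Atp6v0d1 rose by 0.48 ± 0.08, Atp6ap2 by 0.40 ± 0.11 and Atp6v0b by 0.38 ± 0.11. The median of the list, 0.021, was near that of all genes.

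Of 10 other subunit genes listed for Polycomb repressive complex 2, 2 were higher, Jarid2 (0.41 ± 0.08) and Ezh1 (0.39 ± 0.08). The catalytic subunit gene Ezh2 was the 1 lower (-0.34 ± 0.09). The Ezh2 call ended in 7 of 19 alternatives, after quantile normalization again and without WT replicate 3, Nkx2-5 KO replicate 1 or 3, Tbx5 KO replicate 1, or double KO replicate 1 or 2 (adjusted p 0.0519 to 0.102).

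Transport between the endoplasmic reticulum and the Golgi, the setting of Ergic1 and Bnip1, had 1 of 14 higher, Stx5a (0.33 ± 0.10), and 2 lower, the cargo receptor genes Lman2 (-0.36 ± 0.10) and Lman1 (-0.33 ± 0.09). The count of lower genes was 0 without Nkx2-5 KO replicate 3 or double KO replicate 2, and 1 without WT replicate 1 or 2, Nkx2-5 KO replicate 1, or Tbx5 KO replicate 1 or 3. The Stx5a call ended in 10 of 19 alternatives (adjusted p 0.0504 to 0.134). Of 8 Notch ligands and their ubiquitin ligases, the setting of Neurl1b, 2 rose, Dll4 (0.34 ± 0.10) and Jag2 (0.25 ± 0.06), and 0 fell. With centred arrays 0 were called, after quantile normalization again 4 were, and 1 was without WT replicate 1 or 3, Nkx2-5 KO replicate 1, any 1 Tbx5 KO array, or replicate 1 or 2 of double KO.

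Some sample features moved with the label. Xist, an RNA made from the inactive X, lay between 11.46 and 12.32 on the 6 arrays without the label and between 6.44 and 8.16 on the 6 with it. The Y-linked gene Eif2s3y lay between 5.07 and 6.92 without and between 10.33 and 10.67 with the label, and Uty and Kdm5d did not overlap either. All 4 sex-linked genes measured, of 5 listed, were called. Sex-linked RNA and the Nkx2-5 KO label therefore split the 12 arrays in the same way. For the 9 genes, and for every other gene and list compared by that label, effects of the label and of embryo sex cannot be told apart. The part of the raised immediate early genes in the values of Crebrf and Dusp1 was not tested.

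**Figure D4:**
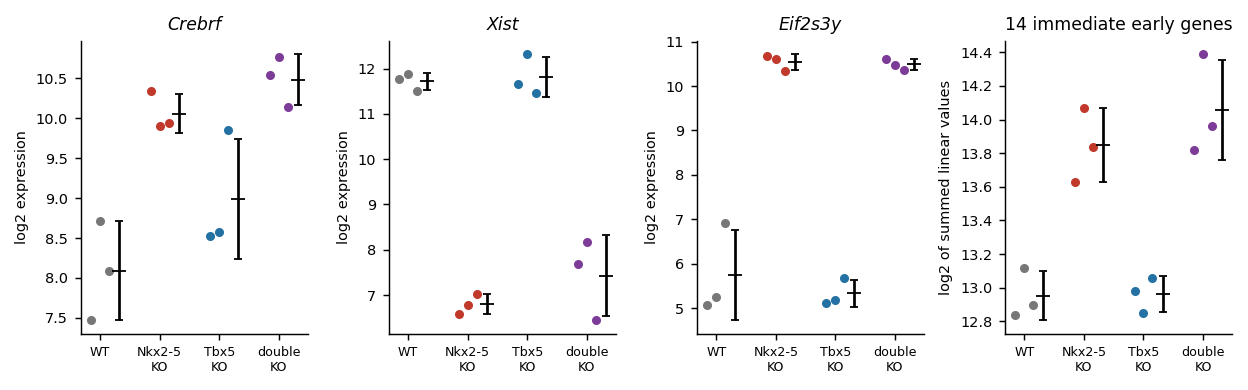
Crebrf, Xist and Eif2s3y (y axes, log2 expression) and 14 immediate early genes (log2 of their summed linear values) on each array by group (x axis), with dots for arrays and black marks for the mean ± SD of 3; the y axes do not start at 0. All 4 measures separate Nkx2-5 KO and double KO arrays from the rest, with Crebrf closest to overlap at Tbx5 KO replicate 3.

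Some markers of other tissues also moved with the Nkx2-5 KO label. Pax6, a transcription factor of the neural list, lay between 9.02 and 9.32 with the label and between 7.39 and 8.87 without it, and rose by 1.28 ± 0.11 (adjusted p = 3.34e-05). Tubb3, also of that list of 4, fell by 0.65 ± 0.19 (0.0333), and the summed level of the list lay between 10.70 and 10.99 with and between 10.48 and 11.34 without the label. Of 6 endoderm genes, Epcam rose by 0.97 ± 0.31 (0.0489), and their summed level was 10.55 to 11.21 with and 10.33 to 10.88 without. Of 5 endocardial and endothelial genes, Pecam1 rose by 0.39 ± 0.13 (0.0494) and Npr3 fell by 0.52 ± 0.13 (0.0171), with summed levels of 12.59 to 13.29 and 12.54 to 13.32. For trophoblast and decidua, 3 of 5 listed genes were measured. Their summed level lay between 10.74 and 11.16 in Tbx5 KO and between 7.39 and 8.33 in the other groups. In the averaged Nkx2-5 difference 2 of them fell, Prl3d3 (-1.69 ± 0.25, adjusted p = 0.000698) and Prl8a2 (-1.65 ± 0.19, 0.000172). The median of the 3 genes was 0.0647 for Nkx2-5 KO minus WT, with 0 called. For double KO minus Tbx5 KO it was -3.08, with 2 called. The non-additive term was called for Prl3d3 and Prl8a2, so the averaged value describes neither Tbx5 state. The 4 measured of 5 erythroid genes lay between 12.79 and 14.27 in double KO and between 14.30 and 15.40 in the other groups. Their part in the values of the 9 genes was not tested, and in RNA of a whole heart fewer cells of a type and less RNA per cell cannot be told apart.

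The genes whose values over the 12 arrays were most like those of Crebrf, by Pearson correlation, were Plag1 (0.983), Edil3 (0.972) and Kdm3a (0.969). Their averaged Nkx2-5 differences were 0.99 ± 0.14, 1.20 ± 0.16 and 0.95 ± 0.12. For Neurl1b they were Atf7ip (0.961), Cd44 (0.954) and Mtx2 (0.944), with differences of -0.37 ± 0.08, -0.47 ± 0.08 and -0.60 ± 0.08. These are the highest of many correlations over 12 arrays that share 4 groups, and they are given as a description.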

How the data were processed

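The labels describe PicoPure isolation of total RNA, NuGEN Ovation amplification and biotin labelling for Affymetrix arrays. The authors deposited log2 expression values per probe set, from 3.21 to 14.7. Their software is not named in the labels, and the values were used as they stand. Of 35557 probe sets, 21789 had exactly 1 symbol in the platform annotation, 1621 had several and 12147 had none listed. For each of 19938 genes the probe set with the highest mean was kept, with no filter on dim signal. Gene order came from the RefSeq table of GRCm38.p6 through Entrez numbers. All 12 arrays entered 1 fit of group means (limma 3.58.1, lmFit and eBayes, R 4.3.3; residual degrees of freedom 8, prior 4.51). P-values are two-sided with Benjamini-Hochberg adjustment over all genes, and the fit was tested on simulated data. Tables used pandas 2.3.3 and numpy 2.4.6 in Python 3.11.15, and plots used matplotlib 3.10.9. A summed level is the log2 of the summed linear values of a list. The members, lists and tests were chosen with earlier results of these data known. Named genes are the 9, Nkx2-5, called genes among the nearest 10 on each side, up to 4 called genes of each list with the largest change, sex-linked genes, and the 3 most correlated genes for the members with the largest differences. Tbx5, Luc7l, Itpr3 and the called genes of the tissue marker lists were named after their values were seen. Alternatives were quantile normalization again, centred arrays, array weights, an intensity trend, only the arrays compared, a replicate block, the mean over probe sets, a filter on dim genes, each array left out, and windows of 5 and 20 genes. The small number of arrays per group sets the precision.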

Additional observations from a re-analysis of the deposited data

How the results depend on the processing

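No value turned its sign past the threshold in any alternative run. Among the 9 genes, the count called for the averaged Tbx5 difference, 1, became 0 after quantile normalization again and 2 with centred arrays, array weights or an intensity trend, and was 0 to 1 with each array left out. The count without overlap between arrays with and without the Nkx2-5 KO label, 2, became 0 with centred arrays and was 2 to 4 with each array left out. Over all genes, array weights raised the calls to 2132 from 884 for Nkx2-5 KO minus WT, to 3568 from 2114 for the averaged Tbx5 difference and to 343 from 109 for the non-additive term, and raised the called Tbx5 neighbours to 5 from 3. With each array left out, the calls ranged from 169 to 1091 for Nkx2-5 KO minus WT, from 1300 to 2207 for double KO minus Tbx5 KO, from 1402 to 2344 for the averaged Tbx5 difference and from 48 to 264 for the non-additive term. Nkx2-5 KO replicate 1 gave the lowest of these for the first and last, and double KO replicate 2 for the others. Of the genes outside the 9, 1 of 3 was called for the averaged Nkx2-5 difference among the nearest 5 on each side. Among the nearest 20 it was 6 of 31 (19.4%), beside 17.1% of all genes. Same-numbered arrays did not deviate together (correlations of -0.27 to 0.21, 3 of 18 over 0.1), so the numbers were not read as pairs. A replicate block left 1036 higher and 2028 lower genes for the averaged Nkx2-5 difference and 61 calls for the non-additive term. With 3 arrays a group, small differences between Tbx5 states could not be resolved.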
